A study of Rattus norvegicus with 112 samples.

Results

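Jun, Junb, Jund and Fosl2 were followed over 112 arrays that measured total RNA of cultured primary neurons of the rat cerebral cortex. They were found by annotation, as the probe sets that the array's annotation pairs with 1 of these genes alone. Each gene had 1 such probe set, X17163cds_s_at for Jun, X54686cds_at for Junb, D26307cds_at for Jund and U18982_s_at for Fosl2, so the description covers 4 of the 720 genes that have a probe set of their own, and 4 of the 1263 probe sets that are not array controls. The genes were selected on their signals by group in these arrays, with their responses to NMDA already known. The values of the 4 genes in every comparison are therefore a description, given with the SE or interval of the fit and no p-value, and nothing is read from how many of them passed a threshold. Whether groups overlapped was noted for these genes alone. The share of all probe sets without overlap was not counted, so such statements have no background beside them.

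NMDA is an agonist of the NMDA class of ionotropic glutamate receptors, and it was used at 1 mM throughout. In the continuous experiment cultures stayed in NMDA until harvest at 10, 30, 60, 180 or 360 min, beside untreated controls, with 3 arrays per group. The pulse experiment exposed cultures to NMDA for 10, 30 or 60 min and harvested them 24 h after its removal, with 4 arrays per group and a second set of 1 array per group. The crossed experiment had cultures with 10 uM nicotine for 18 h followed by 60 min of NMDA, with NMDA alone, with nicotine alone and with neither, 3 arrays each. In the washed-out experiment the same combination used a 30 min NMDA pulse, all agents were removed 24 h before harvest, and 5 samples per group were hybridized in a first run and again in a repeat run. The labels put the repeat down to an oven failure. Smaller experiments, with 3 treated and 3 control arrays each, used 10 uM nicotine for 15 min with harvest 45 min after its removal, 2 uM of the compound 4R for 18 h, or the same 4R treatment with harvest 24 h after washing. The labels call 4R a non-competitive antagonist of nicotinic receptors. The labels do not give the strain, the age of the animals or of the cultures, or whether replicates came from separate cultures, so the errors measure the spread between these samples, which may in part be technical.

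The 4 genes encode basic leucine zipper proteins of the AP-1 transcription factor. Jun, Junb and Jund can pair with each other or with a member of the Fos family, of which Fosl2 (also called Fra-2) is one, and the pairs bind AP-1 sites in DNA. Jun and Junb are immediate early genes, whose transcription starts in neurons soon after calcium enters through NMDA receptors or voltage-gated channels, without new protein synthesis. Fosl2 is known as a slower member of the Fos family, and Jund is known for transcription in resting cells that changes less with stimulation. Jun protein is phosphorylated by the JNK kinases and has been studied in neuronal death. Junb protein is often described as a weaker activator that can hold Jun back.

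The promoters of Junb, Fosl2 and Jund, 250 bases before to 50 bases after the annotated start, are shown as the upstream sequences of the genes described here that the table holds. They come from RefSeq on build GRCr8, Junb at chr19:40080876-40081175 on the plus strand, Fosl2 at chr6:30039220-30039519 and Jund at chr16:18769722-18770021, both on the minus strand. Capitals mark matches on either strand to TGACGTCA (the cAMP response element), to TGACG (its core element), to TGACTCA (the AP-1 site), to TATAAA (the TATA box), to GGGCGG (a GC box) or to the serum response element searched as a CArG box. The core element was counted also where it lies inside the whole one.
Junb promoter: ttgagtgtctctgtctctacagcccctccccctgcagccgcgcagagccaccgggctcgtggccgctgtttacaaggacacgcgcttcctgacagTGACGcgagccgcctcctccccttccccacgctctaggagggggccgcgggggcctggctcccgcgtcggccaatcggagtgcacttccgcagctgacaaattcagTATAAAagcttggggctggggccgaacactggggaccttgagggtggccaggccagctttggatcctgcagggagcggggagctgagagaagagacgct
Fosl2 promoter: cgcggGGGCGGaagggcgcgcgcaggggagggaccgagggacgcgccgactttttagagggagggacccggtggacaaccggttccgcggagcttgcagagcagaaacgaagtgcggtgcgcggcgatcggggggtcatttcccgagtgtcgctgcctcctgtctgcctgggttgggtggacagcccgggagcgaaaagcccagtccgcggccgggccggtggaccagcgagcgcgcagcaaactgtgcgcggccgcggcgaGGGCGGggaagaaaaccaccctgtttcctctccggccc
Jund promoter: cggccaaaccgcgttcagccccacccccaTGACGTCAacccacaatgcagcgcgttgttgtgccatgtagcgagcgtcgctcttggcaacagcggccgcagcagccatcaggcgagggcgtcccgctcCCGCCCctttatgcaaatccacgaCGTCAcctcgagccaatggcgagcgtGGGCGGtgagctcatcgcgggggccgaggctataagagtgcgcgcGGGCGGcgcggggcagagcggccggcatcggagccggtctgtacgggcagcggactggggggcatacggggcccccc
The Junb window held 1 core element, which starts 155 bases before the transcription start, and a TATA box at 49 bases before it. The Jund window held the whole cAMP response element at 221 bases before the start, a further core element at 98 bases and 3 GC boxes. The Fosl2 window held 2 GC boxes and none of the other motifs. Of 33469 promoters of this length in the table, 1.83% held the whole element, 21.2% the core, 4.63% the AP-1 site, 14.2% the TATA box, 33.1% the GC box and 1.64% the CArG box. The AP-1 site and the CArG box were in none of these windows, which says only that these letters are not there. On the same build Jun lies at chr5:115009900-115012993, Junb at chr19:40081126-40082910, Jund at chr16:18768093-18769771 and Fosl2 at chr6:30017952-30039269.

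Signals are linear array intensities that the authors had scaled, with a trimmed mean between 2503 and 2513 on each array. Changes are log2 of the signal plus a small offset, from a limma fit within a run. In runs of more than 4 arrays, 12 arrays had a median correlation with the rest of their run below a limit. The limit lay 3 scaled median absolute deviations below the median of these values over the run. Results are also given without these 12 arrays. They were replicates 2 and 3 of 10 min and replicate 3 of 360 min in the continuous run, replicate 3 of 10 min and replicate 4 of 60 min in the pulse run, and replicate 2 of NMDA and of control in the crossed run. In the washed-out experiment they were replicates 3 and 4 of the control in the repeat run and replicate 5 of both nicotine groups in the first run, and the last was replicate 3 of the 15 min nicotine control. Runs of 4 arrays were not judged by this limit. Among them the control of the second pulse set, at 0.899, lay below it (limit 0.962). So did the second hybridization of replicate 3 of the 10 min pulse, at 0.602 (limit 0.806). The ratio of 3' to 5' GAPDH control signals, a measure of RNA degradation, was 12.3 on the pulse array, replicate 4 of 60 min, and between 1.13 and 3.36 on the others. Summed signals of 10 neuron markers averaged 194123 to 228792 in the continuous NMDA groups and 221888 in their control, and those of 6 astrocyte markers 34746 to 37406 and 36024. In the pulse run the neuron sums averaged 168119, 199194 and 179702 after 10, 30 and 60 min, against 214511 in the control, and the median log2 change of these markers was -0.65, -0.19 and -0.33, beside -0.04, -0.06 and -0.11 over all probe sets. Their median change after NMDA was 0.70 in the repeat washed-out run and -0.06 in the first, beside 0.00 and 0.16 over all probe sets. The lowest sums of the neuron markers, 48010 on the 10 min pulse array, replicate 3, and 48067 among the repeat-run washed-out controls, lay on arrays that stand apart. None of the neuron markers passed in the pulse experiment, where 1 did after each pulse without the arrays that stand apart. In the first washed-out run 1 of 10 passed after NMDA, with a rise, beside 13.9% of all probe sets. The part of these shifts in the results was not tested. No marker was at 0 on any array, and 1 of 6 microglia markers and 1 of 10 endothelial or meningeal markers were on the array. In such bulk RNA, fewer cells of a type and less RNA per cell cannot be told apart. Probe sets with the suffix _s_at, those of Jun and Fosl2, can by the maker's naming share probes with similar transcripts.

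While NMDA was present, Junb signal averaged higher than in control cultures at every time, Fosl2 signal averaged lower at 10 and 30 min and higher from 60 min on, Jun signal averaged higher from 30 min on, and Jund followed no single direction. Junb read 3092, 1243 and 1778 at 10 min, 3379, 2369.5 and 4021 at 30 min, 5676, 2547 and 4708 at 60 min, 9403, 1726 and 11196 at 180 min and 4426, 320.0 and 7300.1 at 360 min, against 679.9, 819 and 499 in control cultures, for replicates 2, 3 and 4 in turn. All NMDA arrays from 10 to 180 min lay above all control arrays, and at 360 min replicate 3 lay below them. The log2 change was 1.43 (SE 0.82), 2.14 (SE 0.82), 2.50 (SE 0.82), 2.97 (SE 0.82) and 1.69 (SE 0.82) in the order of time. By mean level the order was 180, 60, 360, 30 and 10 min, then control.

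Fosl2 took another course. Its signal was 268, 345 and 502 at 10 min, 374, 256 and 319 at 30 min, 1070.4, 1351 and 979 at 60 min, 4095, 1483 and 4250.5 at 180 min and 6343, 695 and 8371 at 360 min, against 641, 468 and 1122 in control cultures. At 30 min all NMDA arrays lay below all control arrays, and at 180 min all lay above them. The log2 change ran from -0.81 (SE 0.65) and -0.98 (SE 0.65) over 0.62 (SE 0.65) to 1.96 (SE 0.65) and 2.15 (SE 0.65). The mean level was highest at 360 min, then 180 and 60 min, then control, then 10 and 30 min. Between 180 and 60 min the groups did not overlap and the log2 difference was 1.34 (95% interval -0.03 to 2.70). Between 360 and 60 min it was 1.53 (95% interval 0.16 to 2.89), and without the arrays that stand apart 2.61 (SE 0.42). Over all arrays neither difference passed an adjusted p under 0.05 in limma, beside 0% of all probe sets and 9 and 44 with an unadjusted p under 0.05. The second passed without the arrays that stand apart, beside 5 of all 884 probe sets.

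Jun signal was 161, 567 and 854 at 10 min, 892, 740.0 and 1212 at 30 min, 2391, 1213 and 1624 at 60 min, 2349.9, 402 and 1607 at 180 min and 1849, 408 and 1451 at 360 min, against 357, 1179 and 246 in control cultures. Control replicate 3 was high, and only the 60 min arrays all lay above every control array. The log2 changes were -0.10 (SE 0.66), 0.83 (SE 0.66), 1.63 (SE 0.66), 1.15 (SE 0.66) and 0.99 (SE 0.66) in the order of time. For Jund they were -0.85 (SE 0.85), -0.18 (SE 0.85), -0.34 (SE 0.85), 0.38 (SE 0.85) and 0.50 (SE 0.85), and its groups overlapped at every time. The overlap and these SEs leave the replicate numbers, with which Jund varied in this run, out of account. At 10 and 60 min Jund read lower than the control for every replicate number, and at 360 min higher. At 30 min it read lower for replicates 2 and 3, and at 180 min for replicate 3 alone. Without the arrays that stand apart, which left 1 array at 10 min, the changes there were 0.72 (SE 0.79) for Jun and 0.80 (SE 1.09) for Jund, both turned in sign, and -0.42 (SE 0.54) for Fosl2. In the order of mean levels, the ranges of neighbouring groups overlapped for Jun and Jund throughout, for Junb except between 10 min and control, and for Fosl2 except between 180 and 60 min.

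**Figure D1:**
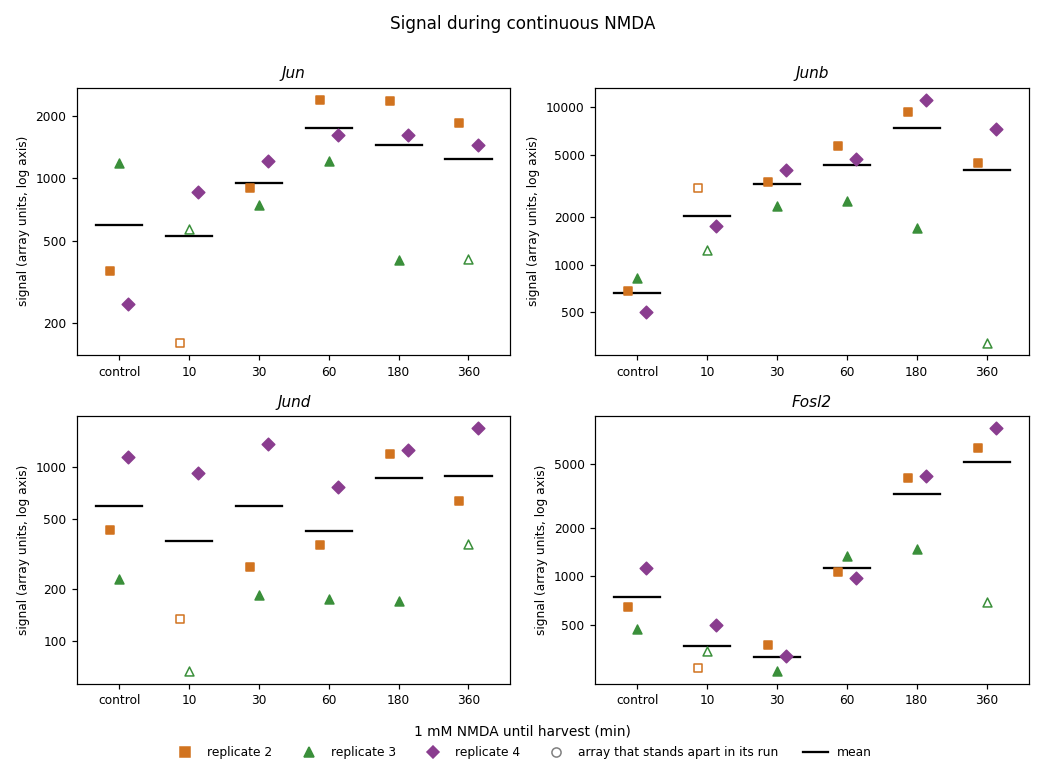
Signal of each gene (log axis, array units) in control cultures and after 10 to 360 min of continuous NMDA, with 1 point per array, shape and colour by replicate number, open points for arrays that stand apart and bars for group means. Junb points leave the control range from 10 min, Fosl2 points are below it at 30 min and above it at 180 min, and replicate 3 is low for both genes at 360 min.

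None of the 4 members passed the threshold of an adjusted p under 0.05 at any of the 5 times. Over all 884 probe sets tested, 0%, 0%, 0.679%, 0.452% and 0% passed in the order of time, and 63, 16, 20, 35 and 73 had an unadjusted p under 0.05 in limma. At 360 min replicate 3, with a 3' to 5' GAPDH ratio of 2.25, read 320.0 for Junb, 695 for Fosl2 and 408 for Jun, the lowest of its group for each. Without the arrays that stand apart the log2 change at 360 min was 2.96 (SE 0.61) for Junb and 3.23 (SE 0.42) for Fosl2. In those fits 1, 2 and 2 members passed at 60, 180 and 360 min, beside 11, 11 and 16 of all 884 probe sets. With the replicate number as a block 1 member, Junb at 180 min, passed, beside 8 of all 884 probe sets.

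A day after a pulse of NMDA, Jun, Junb and Fosl2 signals averaged higher than in control cultures, after 10, 30 and 60 min of exposure alike. Junb was 6069.9, 3239, 4869 and 3335 after 10 min, 5356, 3631, 2444 and 3468 after 30 min and 5167, 2665, 2636 and 3221 after 60 min, against 2065, 1511, 447 and 1489.8 in control cultures. Within this run every pulsed array lay above every control array. The log2 changes were 1.75 (SE 0.43), 1.52 (SE 0.43) and 1.39 (SE 0.43). A 30 min sample hybridized again in another run read 2041 for Junb, below the highest control array at 2065. The other repeats, at 4869, 3683 and 2507, lay above all these control arrays. Jun was 1766, 1271, 1883 and 1386 after 10 min, 1824, 1648, 915 and 1289 after 30 min and 2605, 1734, 1608 and 1219 after 60 min, against 755, 407, 811 and 453 in control cultures, and these groups did not overlap either. Its log2 changes were 1.33 (SE 0.34), 1.15 (SE 0.34) and 1.47 (SE 0.34).

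Fosl2 was 4751, 2636, 1912 and 781 after 10 min, 3672, 1581, 1256 and 2193 after 30 min and 3508, 2619, 1286 and 481 after 60 min, against 260.0, 322, 1549.7 and 719 in control cultures. Control replicate 3 was high and replicate 4 was low after 10 and 60 min, and the groups overlapped at each duration. The value of 481 came from the array with a 3' to 5' GAPDH ratio of 12.3. Hybridized again in another run, replicate 4 read 1425 after 10 min and 1807 after 60 min. Replicate 3 of 30 min read 1382 in that run. The log2 changes were 1.78 (SE 0.63), 1.72 (SE 0.63) and 1.37 (SE 0.63). Jund had a mean of 282 over the run, just under the limit of 287 for testing, and its groups overlapped throughout, with 395, 578, 113 and 84.5 after 10 min, 499, 221, 72.5 and 733 after 30 min and 471, 490.3, 35.7 and 87.8 after 60 min, against 70.5, 322, 71.6 and 272 in control cultures. With no filter on low values its log2 change was 0.43 (SE 0.67), 0.72 (SE 0.67) and 0.23 (SE 0.67).

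**Figure D2:**
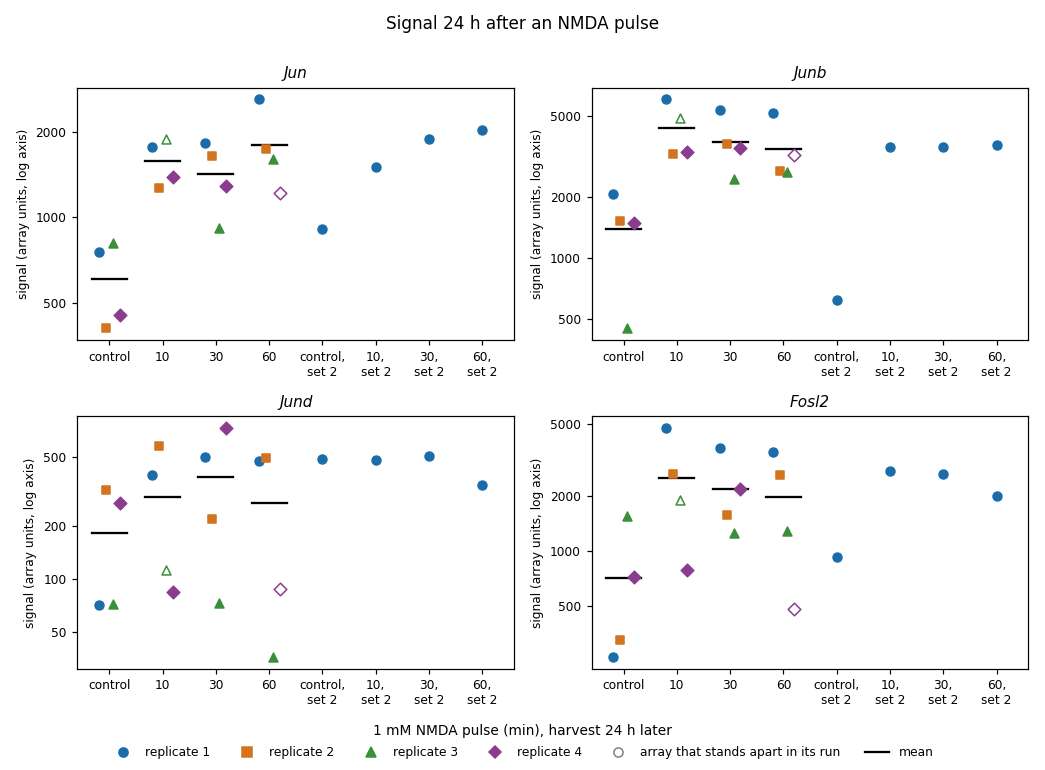
Signal of each gene (log axis, array units) 24 h after no pulse or a pulse of 10, 30 or 60 min, with 1 point per array, shape and colour by replicate number, open points for arrays that stand apart and bars for means. The 4 columns at the right are the second set, with 1 array per group, in which Junb was 617 in the control and between 3502 and 3602 after the pulses.

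After the 10 min pulse 2 of the 3 tested members passed the threshold, Jun and Junb, beside 2.26% of all probe sets, after 30 min none did beside 1.36%, and after 60 min Jun did beside 1.58%. At 30 min 44 probe sets had an unadjusted p under 0.05 in limma. Arrays of the same replicate number share a label date here, and replicates 3 and 4 carry the same date. The fits take replicates 3 and 4 as separate all the same. With the replicate number as a block, 1 and 2 members passed after 30 and 60 min, beside 20 and 23 of all 884 probe sets. The count after 10 min stayed at 2. The calls after 10 and 60 min were lost in fits of those groups alone, and that of Junb after 10 min without the arrays that stand apart. The log2 difference of the 60 min from the 10 min pulse was 0.14 (SE 0.34) for Jun, -0.36 (SE 0.43) for Junb and -0.41 (SE 0.63) for Fosl2, with none of these past the threshold beside 0% of all probe sets and 9 with an unadjusted p under 0.05. The Fosl2 difference was 0.08 (SE 0.66) without the arrays that stand apart. In the second set, with no replicates, Junb read 3502, 3509 and 3602 after 10, 30 and 60 min, against 617 in the control. Fosl2 read 2735, 2653 and 2014, against 926, and Jun 1499, 1879 and 2027, against 914. Jund read 478, 505 and 343, against 484. In that set Junb, Fosl2 and Jun read higher on each of the 3 pulsed arrays than on the control, and Jund on the 30 min array alone. Its only control array had a median correlation of 0.899 with the pulsed arrays, each of which had 0.964 within the set.

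In the crossed experiment, Junb signal was several times higher after 60 min of NMDA both with and without 18 h of nicotine before it. Junb was 4823, 4868 and 6255 with nicotine and NMDA, against 1024, 1122 and 807 with nicotine alone. It was 5446, 4155 and 4559.9 with NMDA alone, against 1250.4, 778 and 973 in control cultures. The log2 changes were 2.37 (SE 0.22) within nicotine and 2.19 (SE 0.22) without it, the arrays did not overlap in either pair, and these were the smallest SEs among the NMDA changes of Junb. Junb was the only member that passed, within nicotine beside 1.02% of all probe sets and without it beside 0.905%.

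Fosl2 was 1543, 1221 and 1182 with both agents, against 854, 763 and 734 with nicotine, and 2307, 802 and 1592 with NMDA, against 496, 521 and 911 in control cultures. Its groups did not overlap within nicotine and overlapped without it. The log2 changes were 0.70 (SE 0.34) and 1.15 (SE 0.34), and the second was 1.43 (SE 0.30) without the arrays that stand apart, where 2 members passed beside 11 of all 884 probe sets. Jun was 1239.7, 1282 and 1429 with both agents, against 1654, 651 and 912 with nicotine, and 1791, 613 and 2189 with NMDA, against 1118, 111 and 604 in control cultures. The low Jun value of control replicate 2 came from an array that stands apart, with a 3' to 5' GAPDH ratio of 3.36. Jund was 424, 99.4 and 1062 with both agents, against 116, 310.5 and 1203 with nicotine, and 459.8, 93.8 and 1285 with NMDA, against 123, 61.6 and 914 in control cultures. Its groups overlapped in both pairs, with log2 changes of 0.03 (SE 1.04) and 0.78 (SE 1.04). This overlap and these SEs leave the shared label dates of the replicate numbers out of account. Within dates Jund read higher with NMDA alone than in the control for every replicate number. Within nicotine it read higher with NMDA for replicate 1 and lower for replicates 2 and 3.

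Whether nicotine altered the response to NMDA was described by the difference between the NMDA changes with and without it. That difference was 0.18 for Junb (95% interval -0.50 to 0.85), -0.45 for Fosl2 (-1.49 to 0.60), -1.09 for Jun (-3.04 to 0.86) and -0.75 for Jund (-3.94 to 2.44). No member passed in limma, beside 0% of all probe sets and 16 probe sets with an unadjusted p under 0.05. Nicotine alone against control gave log2 changes of 1.06 (SE 0.63) for Jun, -0.01 (SE 0.22) for Junb, 0.65 (SE 1.04) for Jund and 0.31 (SE 0.34) for Fosl2. None passed in limma, beside 0% of all probe sets and 40 with an unadjusted p under 0.05. Without the arrays that stand apart the change was 0.26 (SE 0.35) for Jun and 0.04 (SE 0.98) for Jund. Nicotine with NMDA against NMDA alone gave -0.04 (SE 0.63), 0.17 (SE 0.22), -0.10 (SE 1.04) and -0.13 (SE 0.34) for the genes in the same order, none past the threshold beside 0% and 14 probe sets with an unadjusted p under 0.05 in limma. These were, without the arrays that stand apart, -0.57 (SE 0.35), 0.08 (SE 0.22), -0.93 (SE 0.98) and -0.53 (SE 0.28).

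**Figure D3:**
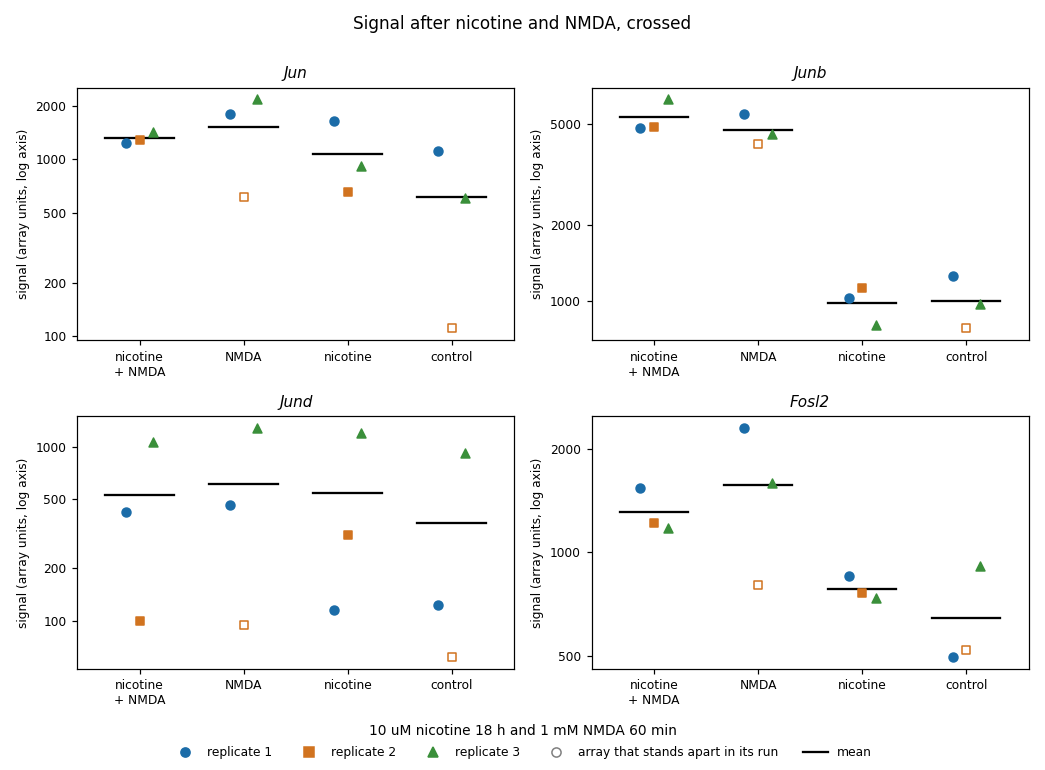
Signal of each gene (log axis, array units) with nicotine and NMDA, NMDA, nicotine or neither, with 1 point per array, shape and colour by replicate number, open points for arrays that stand apart and bars for means. Junb lies between 4155 and 6255 on the 6 NMDA arrays and between 778 and 1250.4 on the other 6, and the highest Jund point of each group is replicate 3.

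The washed-out experiment asked what remained 24 h after a 30 min NMDA pulse, with or without nicotine, on other arrays than the pulse experiment. In the repeat run Junb was 2139.9, 1862, 2215, 2890.4 and 1503 after NMDA, against 1637, 1015, 1797, 1344 and 1191 in control cultures. It was 1961, 1724, 1735, 2393 and 1215 after nicotine and NMDA, against 1208, 877, 1148, 1314 and 1339 after nicotine. All 5 NMDA samples lay above the mean of their controls in both pairs, although the ranges overlapped. The log2 changes were 0.58 (SE 0.24) without nicotine and 0.57 (SE 0.24) within it.

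Fosl2 was 1503, 1312, 2332, 2138 and 1107 after nicotine and NMDA, against 825, 453, 648, 1093 and 447 after nicotine, and these groups did not overlap. The log2 change was 1.22 (SE 0.56). Without nicotine Fosl2 was 1126, 1739, 1309.6, 1550.3 and 811 after NMDA, against 809, 172, 6381, 684 and 726 in control cultures, a log2 change of 0.49 (SE 0.56). Control replicate 3 was far above the other control arrays for Fosl2, so that the mean signal was lower after NMDA, 1307 ± 362 against 1754 ± 2599 (SD, n = 5 each), while the log2 change was above 0. That array had a median correlation of -0.02 with the rest of its run, and of 0.193 with the first-run array of the same sample, where Fosl2 read 776. Without the arrays that stand apart, both of them controls, the change was 1.29 (SE 0.40) for Fosl2 and 0.70 (SE 0.23) for Junb.

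In the first run of the same samples Junb was 1623, 3105, 1939, 2265 and 1312 after NMDA, against 994, 848, 921, 1408 and 954 in control cultures, a log2 change of 0.92 (SE 0.25). Fosl2 was 1336, 2012, 1130.2, 1501 and 765, against 804, 614, 776, 579.5 and 810.1, a change of 0.81 (SE 0.26). The ranges overlapped for both. These 2 members passed the threshold there, beside 13.9% of all probe sets. In the repeat run no member passed without nicotine, beside 0.226% of all probe sets, with 157 at an unadjusted p under 0.05 in limma. Within nicotine none passed in either run, beside 0% in the repeat run, with 40 probe sets at an unadjusted p under 0.05, and 2.04% in the first run. There Junb was 1549.7, 1720.5, 2261, 2714 and 1482 after nicotine and NMDA, against 1140.1, 515, 1326, 1272 and 1139 after nicotine, without overlap, a log2 change of 0.85 (SE 0.25). The change of Fosl2 was 0.74 (SE 0.26).

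Jun had a change above 0 in the repeat run and below 0 in the first. It was 1609, 1922, 1619, 2844 and 1902 after NMDA, against 2273, 1883, 1371, 428 and 1296 in control cultures in the repeat run, and 1804, 1504, 1390.4, 2306 and 1589, against 1801, 1904, 2302, 2559.8 and 1409, in the first run. The ranges overlapped in both runs. The log2 change was 0.58 (SE 0.35) in the repeat run, 0.12 (SE 0.28) there without the arrays that stand apart, and -0.20 (SE 0.30) in the first run. The 30 min pulse experiment, on other arrays, gave 1.15 (SE 0.34) for the same length of pulse and the same 24 h. Within nicotine the Jun change was 0.21 (SE 0.35) in the repeat run and 0.37 (SE 0.30) in the first. Whether the pulse and washed-out experiments differ was not tested, since each was fitted within its own run.

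Jund was 431, 319, 851, 711 and 88.9 after NMDA, against 131, 32, 259.9, 3394 and 27.3 in control cultures in the repeat run, and 789, 91.4, 676, 669 and 57.4, against 333, 54.2, 344, 644 and 58.8, in the first run. The control of the repeat run held 1 value far above the rest, that of replicate 4. The log2 change was 0.70 (SE 0.87) in the repeat run, 1.97 (SE 0.76) there without the arrays that stand apart, and 0.49 (SE 0.73) in the first run. Within nicotine it was 0.32 (SE 0.87) and 0.18 (SE 0.73) in the repeat and the first run.

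**Figure D4:**
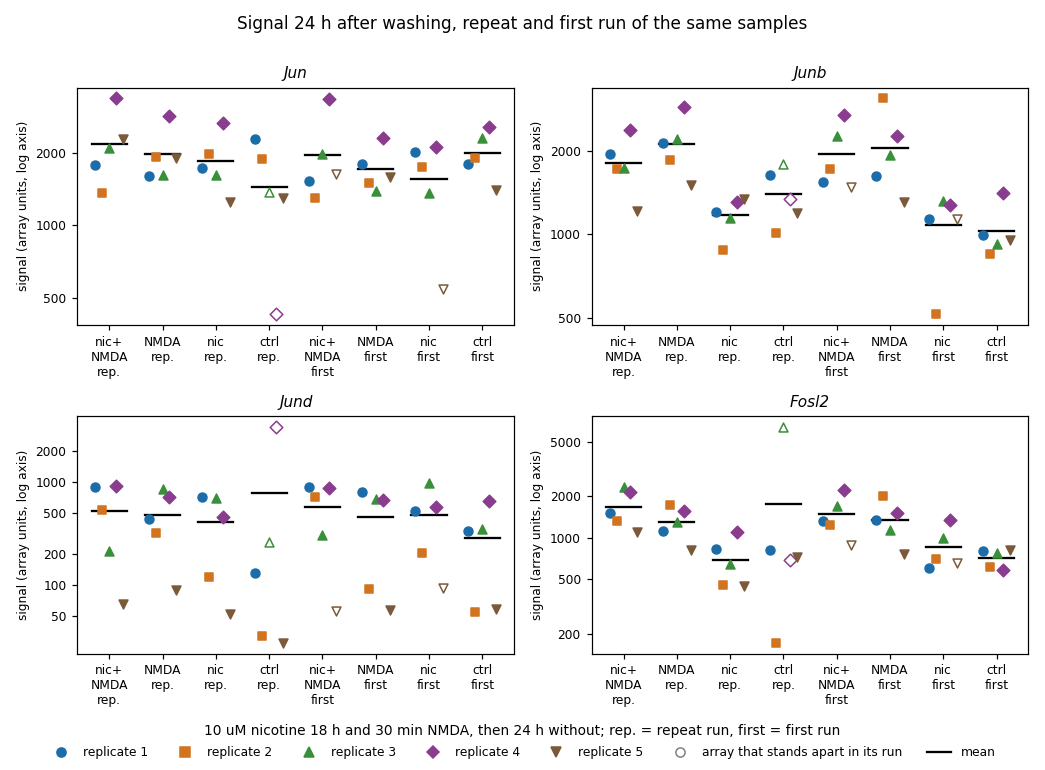
Signal of each gene (log axis, array units) 24 h after washing, in the repeat run (left 4 columns) and the first run (right 4 columns) of the same samples, with 1 point per array, shape and colour by replicate number, open points for arrays that stand apart and bars for means. The Fosl2 control array at 6381 and the Jund control array at 3394 in the repeat run have no counterpart in the first run.

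The change of Junb after NMDA differed between cultures with and without nicotine by -0.0045 (95% interval -0.72 to 0.71) in the repeat run and -0.08 (-0.82 to 0.67) in the first. That of Fosl2 differed by 0.74 (-0.90 to 2.37) and -0.07 (-0.83 to 0.70). Without the control arrays that stand apart the repeat-run difference was -0.07 (SE 0.53) for Fosl2, turned in sign. None of the 4 members passed in either run in limma, beside 0% of all probe sets and 33 and 81 with an unadjusted p under 0.05. Washed-out nicotine against control left all 4 genes short of the threshold, beside 0% of all probe sets in the repeat run and 0.339% in the first, with 187 and 154 probe sets at an unadjusted p under 0.05 in limma. Its log2 change in the repeat run was 0.47 (SE 0.35) for Jun, -0.22 (SE 0.24) for Junb, 0.37 (SE 0.87) for Jund and -0.40 (SE 0.56) for Fosl2. Without the control arrays that stand apart these were 0.02 (SE 0.28), -0.10 (SE 0.23), 1.64 (SE 0.76) and 0.40 (SE 0.40), with the sign of Fosl2 turned. Nicotine with NMDA against NMDA alone gave 0.11 (SE 0.35), -0.23 (SE 0.24), -0.01 (SE 0.87) and 0.34 (SE 0.56), none past the threshold beside 0% in both runs and 4 and 16 probe sets with an unadjusted p under 0.05 in limma.

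Neither a short exposure to nicotine nor 4R moved any of the 4 genes past the threshold. After 15 min of nicotine Junb was 2851, 3013 and 2012, against 1783, 2687 and 2532 in control cultures, a log2 change of 0.17 (95% interval -0.30 to 0.63). Jun was 1273, 1866 and 1583, against 1572, 2117 and 2423, a change of -0.36 (-0.81 to 0.10). Fosl2 changed by 0.12 (-0.57 to 0.81) and Jund by -0.08 (-1.42 to 1.26). All groups overlapped. Without the control array that stands apart the changes of Fosl2 and Jund turned in sign, to -0.21 (SE 0.25) and 0.44 (SE 0.59).

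After 18 h of 4R Junb was 480.4, 649 and 781, against 164, 559.9 and 492 in control cultures, a log2 change of 0.68 (95% interval -0.29 to 1.65), and control replicate 1 was the low value. Jun changed by 0.01 (-0.91 to 0.93), Jund by 0.03 (-2.31 to 2.37) and Fosl2 by -0.17 (-1.07 to 0.74). The intervals of the 4R runs leave the label dates that replicate numbers share out of account. After 18 h of 4R the replicate number held 99.8% of the variation of Jund within groups. By number Jund was 77.8, 948 and 83.4 with 4R, against 82.8, 826 and 88.1 in the control. A day after 4R was removed Junb was 1108, 1106 and 1057, against 1082, 1305 and 862, a change of 0.03 (-0.50 to 0.55). Jun changed by -0.45 (-1.46 to 0.56), Jund by 0.59 (-0.96 to 2.14) and Fosl2 by 0.35 (-0.36 to 1.06). In these 3 experiments 0% of all probe sets passed, and 29, 20 and 14 had an unadjusted p under 0.05 in limma, for nicotine, 4R and washed-out 4R.

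Jund signal went with the replicate number in several runs, a pattern noted after its values were seen and given here as a description. In the continuous run replicate 4 had the highest Jund signal in 6 of 6 groups and replicate 3 the lowest in 6 of 6. Replicate 4 read 928, 1350.0, 762, 1244 and 1662 from 10 to 360 min, against 1135 in the control, and replicate 3 read 67, 185, 174, 171 and 360.3, against 226. In the crossed run, where a number stands for a shared label date, replicate 3 was highest in 4 of 4 groups. After 18 h of 4R Jund was 77.8, 948 and 83.4, against 82.8, 826 and 88.1 in control cultures, so that replicate 2 was high in both groups. In the washed-out experiment replicate 5 was lowest in 4 of 4 groups of the repeat run and in 3 of 4 of the first.

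The replicate number accounted for 87.5% of the variation of Jund within groups in the continuous run, 84.9% in the crossed run and 99.8% in the run with 18 h of 4R. The median over all tested probe sets was 41.8%, 41.7% and 74.4% there, and 95.8%, 95.6% and 99.2% of probe sets had no larger share than Jund. Without the arrays that stand apart the share of Jund was 86.4% in the continuous and 82.3% in the crossed run, and 91.1% and 87.6% of probe sets had no larger share. For Junb, over all arrays, the share was 48.2%, 21.0% and 80.4%. For Jun it was 9.11%, 61.9% and 80.6%, and for Fosl2 37.2%, 31.7% and 25.2%. Over the 18 washed-out samples other than the control pair that stands apart, log2 Jund correlated with r = 0.902 between the first and the repeat run, beside 0.795 for Jun, 0.811 for Junb and 0.837 for Fosl2. These samples share treatment groups, so r is a description.

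**Figure D5:**
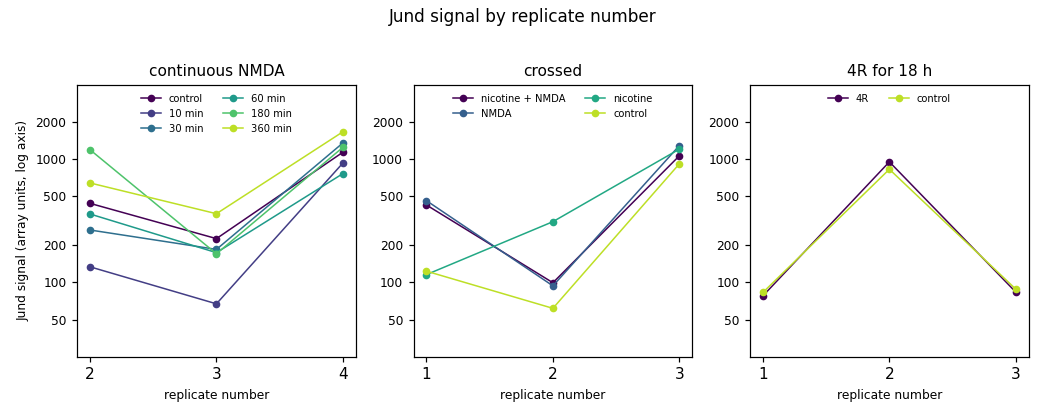
Jund signal (log axis, array units) by replicate number in the continuous, crossed and 18 h 4R runs, where lines join the arrays of 1 group and replicate numbers have no order in time. In the continuous run the 6 lines share their high point at replicate 4, and in the 4R run both groups lie between 77.8 and 88.1 at replicates 1 and 3 and at 948 and 826 at replicate 2.

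The genes that work with these factors were described from lists that were also chosen with results of these data known, so that their counts are no independent evidence. Of 20 relatives and partners in the basic leucine zipper family, 5 were on the array, namely Fos, Fosl1, Creb1, Crem and Cebpb. Fos is the best known partner of the Jun proteins, and Crem also gives rise to a cAMP-responsive repressor. They were the 2 of 5 that passed the threshold after each pulse, beside 2.26%, 1.36% and 1.58% of all probe sets after 10, 30 and 60 min. In that order Fos rose by 2.23 (SE 0.37), 1.96 (SE 0.37) and 1.77 (SE 0.37) and Crem by 2.42 (SE 0.45), 2.08 (SE 0.45) and 2.12 (SE 0.45) on the log2 scale. The list's median change after these pulses was -0.12, 0.91 and 0.19, beside -0.04, -0.06 and -0.11 over all probe sets. Fos rose in the crossed experiment by 2.09 (SE 0.17) within nicotine and 1.94 (SE 0.17) without it. It passed in both, beside 1.02% and 0.905% of all probe sets. At 180 min of continuous NMDA it was the 1 of 4 tested genes of the list that passed, with a rise of 2.36 (SE 0.46), beside 0.452% of all probe sets. The median change of the list there was 1.25, beside -0.07 over all probe sets. The call of Fos at 180 min was lost with quantile normalization, median centring, 4 times the offset or a fit of the compared groups alone.

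Of 19 other activity-regulated genes 7 were measured. Those that passed the threshold, all with a rise, were the orphan nuclear receptors Nr4a1 and Nr4a3, the growth factor gene Bdnf, the transcription factor gene Egr1 and Nptx2, which encodes a secreted synaptic pentraxin. After the 10 min pulse 4 of 7 passed, beside 2.26% of all probe sets. Bdnf rose by 3.12 (SE 0.41), Nr4a1 by 2.76 (SE 0.39), Nr4a3 by 1.41 (SE 0.34) and Nptx2 by 2.29 (SE 0.56). After 30 and 60 min Bdnf, Nr4a1 and Nr4a3 passed, beside 1.36% and 1.58% of all probe sets. The median of the list was 1.83, 1.65 and 1.76 after these pulses. In the continuous experiment Egr1 rose by 2.29 (SE 0.45) and Nr4a1 by 3.12 (SE 0.67) at 60 min, and Nr4a1 by 3.26 (SE 0.67) at 180 min. These calls stood beside 0.679% of all probe sets at 60 min and 0.452% at 180 min. With the replicate block 1, 2 and 3 genes of this list passed at 30, 180 and 360 min, against 0, 1 and 0 without it. The block gave 5 against 3 after the 60 min pulse and 2 against 1 for crossed NMDA. With it, 4, 8, 10, 23 and 11 of all 884 probe sets passed in these contrasts. For the leucine zipper list the block gave 1 gene at 60 and at 360 min of continuous NMDA, against 0, beside 9 and 10 of all probe sets. The Nr4a1 call at 180 min was lost in the same 4 settings as that of Fos, and the 2 calls at 60 min became 0 with median centring and 1 with quantile normalization or 4 times the offset. In the first washed-out run 4 of 7 passed after NMDA without nicotine, beside 13.9% of all probe sets, among them Nr4a3 with a rise of 1.17 (SE 0.17). In the repeat run Nr4a3 alone passed, with a rise of 2.29 (SE 0.44), beside 0.226% of all probe sets. That call was lost with quantile normalization, median centring or the compared groups alone.

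Of 30 genes of the JNK and ERK pathways, whose kinases act on Jun and Fos proteins, 7 were measured, namely Mapk9, Mapk14, Map2k1, Map2k2, Map3k1, Dusp4 and Dusp5. None passed after NMDA in the continuous, pulse or crossed experiments or in the repeat washed-out run, with list medians between -0.55 after the 60 min pulse and 0.49 in the washed-out repeat run. In the first washed-out run Map2k2, a kinase upstream of ERK, fell by 0.42 on the log2 scale (SE 0.12), 1 of 7 tested beside 13.9% of all probe sets, a share near that background. Of 34 genes described as targets of AP-1, 18 were on the array and 13 were tested in the pulse run. Penk, the precursor of enkephalin peptides, was the 1 of 13 that passed there, beside 2.26%, 1.36% and 1.58% of all probe sets after 10, 30 and 60 min. In that order it rose by 1.86 (SE 0.39), 1.74 (SE 0.39) and 1.83 (SE 0.39), with list medians of 0.42, 0.54 and 0.21. No gene of that list passed in the continuous, crossed or washed-out experiments, including the first washed-out run. In that first run 1 passed within nicotine without the arrays that stand apart, beside 21 of all 884 probe sets. Penk in the pulse run did not pass after 10 min with the compared groups alone.

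The 3 genes whose log2 signal, relative to the control mean of the run, followed each member most closely were named by Pearson's r over 84 arrays of 7 runs, without the first washed-out run of samples that the repeat run holds too, among 671 probe sets tested in all of them. The arrays share treatments and runs, so r is a description. For Junb they were Fos (r = 0.89), Nr4a1 (0.85) and Nr4a3 (0.69). For Jun they were Nr4a1 (0.71), Fos (0.70) and Junb (0.63), and for Fosl2 they were Bdnf (0.70), Nr4a1 (0.68) and Fos (0.67). Jun and Fosl2 stood at rank 5 and 7 for Junb, with 0.63 and 0.50. For Jund they were Sst (0.58), the precursor of somatostatin, Glul (0.56), the glutamine synthetase gene, and Cx3cl1 (0.53), a chemokine gene, while Fosl2, Junb and Jun had 0.37, 0.18 and 0.12. Without the arrays that stand apart, over 74 arrays, the same 3 genes led for Junb, Jun and Fosl2, with r = 0.93 for Junb with Fos and 0.79 for Fosl2 with Bdnf, while for Jund Sst (0.65) was followed by Apoe (0.60) and Slc32a1 (0.59).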

How the data were processed

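RNA from rat cortical neuron cultures was measured on 112 Affymetrix rat arrays with 1322 probe sets. The deposited values are linear signal intensities, scaled by the authors to a common trimmed mean, to judge from the values; the labels name no software. Array controls were left out, which left 1263 probe sets, named through the platform annotation. Within each run, log2(signal + offset), with the run's 10th percentile as offset, was fitted with limma 3.58.1 in R 4.3.3 (trended variance, all groups of a run together). Probe sets with a run mean below the 30th percentile were left out, and p-values were adjusted over the other 884 by Benjamini-Hochberg, 2-sided at 0.05. The fit was tested on simulated data with independent noise of the residual spread of each probe set. With the groups of 60 min of continuous NMDA it recovered 37% of 2-fold and 94% of 4-fold changes, and with those of the washed-out run 31% and 83%. The simulation held no deviations shared by replicate number and no arrays that stand apart, so recovery in the real runs can differ.

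The members and lists were chosen with earlier results of these data known. The text names the 4 genes everywhere, list genes that passed, at most 4 per contrast in order of adjusted p, and the 3 genes most like each member.

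Same replicate numbers share a label date in the pulse, crossed and 18 h 4R runs, and replicates 2 and 3 do in the washed-out 4R run. In the pulse run replicates 3 and 4 also carry the same date, with the letters RC added for replicate 4. The fits and the block took them as separate. In the continuous run all same-number pairs had correlated deviations (lowest r 0.122). In the 15 min nicotine and washed-out NMDA runs the lowest r was between -0.0998 and 0.0110, and those numbers were not taken as pairs. The lowest r does not show that they are unrelated, since it was -0.169 in the pulse run, whose dates are shared. The median r of same-number pairs was 0.112 for 15 min nicotine, 0.154 in the repeat and 0.374 in the first washed-out run, beside 0.306 in the pulse run.

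Alternatives were other scalings, offsets and filters, fits of the compared groups alone, a replicate block, the first washed-out run, and leaving out each replicate, the arrays that stand apart, a 30 min pulse array whose labels also carry 60 min, or averaging 4 repeat arrays. The first run with a block or without its arrays that stand apart was chosen after seeing the data. The number of arrays limits the precision.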

Additional observations from a re-analysis of the deposited data

Results flagged for a closer look

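The 4 genes in each group of 4 or 5 arrays gave 48 sets of values. In 5 of these sets 1 array lay farther from the rest than Dixon's 95% limit allows, where chance alone flags about 5% of sets. In the repeat run of the washed-out experiment, control replicate 3 had a Fosl2 signal of 6381, with the next highest control at 809, and 776 in the first run of the same sample. Control replicate 4 of the repeat run had a Jund signal of 3394, with the next highest at 259.9, and 644 in the first run. Both arrays are among those that stand apart. Replicate 4 of the NMDA group in the repeat run had a Jun signal of 2844, with the next highest at 1922. In the first run, control replicate 4 had a Junb signal of 1408, with the next highest at 994, and replicate 2 of the nicotine group had a Junb signal of 514.5, with the next lowest at 1139.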

How the results depend on the processing

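No called direction reversed. Counts are of members past the threshold, with all probe sets in brackets. In the continuous experiment 0 passed. Fits of the compared groups alone gave 1 (8) at 30 min and 1 (10) at 60 min. The replicate block gave 1 (8) at 180 min, and leaving out the arrays that stand apart gave 1 (11), 2 (11) and 2 (16) at 60, 180 and 360 min. Both together gave 1 (7), 1 (11), 2 (14) and 2 (20) from 30 to 360 min. Leaving out 1 replicate gave 0 to 1 at 180 min (1 without replicate 3 of that group), 0 to 2 at 360 min (2 without replicate 3 of that group) and 0 to 1 for differences between durations (1 without the same 360 min array). Those differences gave 1 without the arrays that stand apart, with or without the block. After the 10 min pulse the 2 calls became 1 with quantile normalization (17), 4 times the offset (18), no filter (16) or without the arrays that stand apart (23), and 0 (9) with those groups alone. After 30 min the block gave 1 (20), and 2 (43) also without the arrays that stand apart. After 60 min, where 1 passed, the block gave 2 (23), and 2 (38) also without those arrays, while no filter gave 0 (11) and those groups alone 0 (10). Leaving out 1 replicate gave 0 to 1 at 10 min, with 0 without control replicate 2 or 4 or pulsed replicate 1, 2 or 3, and 1 without control replicate 1 or 3 or pulsed replicate 4. At 60 min it gave 0 to 1, with 0 without control replicate 2 or 4 or pulsed replicate 1, 2 or 3. For crossed NMDA, 2 (11) passed without the arrays that stand apart, 2 (14) with the block as well, and 1 to 2 with 1 replicate left out (2 without replicate 2 of NMDA). For washed-out NMDA the first run gave 2 (123), 2 (210) with a replicate block and 2 (126) without its arrays that stand apart. Within nicotine the block without those arrays gave 1 (52) in the repeat run, and the block gave 1 (60) in the first. The replicate numbers of the washed-out NMDA runs share only a number. There the block gave, for AP-1 targets in the first run, 2 (210), 2 (60) and 1 (13) genes after NMDA, NMDA within nicotine and nicotine, against 0. The block changed no member call in either 4R run. The causes were not tested.

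Among single changes of the 4 genes, 623 of the values with 1 replicate left out and 848 of the others kept direction and call, 74 and 47 that passed in neither setting turned their sign, 18 and 8 lost a call and 5 and 31 gained one. Of the counts for gene lists, 1452 with 1 replicate left out and 1882 others kept their size within 1.5 times, and 60 and 89 did not. Groups of 3 to 5 arrays, and signals near the low end of an array, limit the precision.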

Other observations

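4 pulse samples were hybridized again. The repeat of replicate 3 of the 10 min pulse held the same values within 0.05 as its first array. The other repeats correlated with their first arrays at r = 0.891 for replicate 4 of 10 min, 0.924 for replicate 3 of 30 min and 0.808 for replicate 4 of 60 min, over log2 signals.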
